A study of Mus musculus with 85 samples.

Results

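The transcripts described here are 132 of the 37368 genes measured in mouse preimplantation embryos, namely those that appeared briefly in the middle of the 2-cell stage. They were chosen by their level in CPM (read counts scaled to a common library total) in embryos grown in complete medium. A gene had to average at least 20 CPM at 42 h after the injection of hCG, the hormone that times ovulation. The 4988 genes that met this were ranked by the log2 ratio of that mean plus 1 CPM to the higher of the means at 34 h and 55 h plus 1 CPM. Of the first 150 genes, 18 whose symbols belong to the ZSCAN4, OBOX, TDPOZ, TCSTV, USP17L, DUXF, TRIM43 or PRAMEF families, or to the mitochondrial genome (MT-), were set aside. The ratio ran from 7.12 for Gm5157 down to 3.23 for Kdm4dl and 3.21 for Gm6489 at the edge. Just outside lay Gm5698 and Zfp867, both at 3.19. Because these 3 standard groups chose the genes, every value at 34, 42 and 55 h in complete medium is given as a description without a test.

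The 2-cell stage is when the mouse embryo starts to transcribe its own genome in earnest, while messages stored in the egg are degraded. Part of the first wave consists of genes that are switched on for only a few hours and then silenced, many of them recently duplicated and lying near repeats and retroviral elements. Zscan4 and the MERVL retrovirus are the best known examples, and stem cells that briefly re-enter this state are recognised by the same transcripts. Pyruvate is the fuel on which the early mouse embryo depends, and without it embryos can pause at the 2-cell stage.

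All embryos were wild type and of the strain B6C3F1/J, and each library was made from whole embryos with Smart-seq2, a method for minute amounts of polyadenylated RNA. The standard medium, KSOM, held L-lactate at 5 mM, and pyruvate and glucose at 0.2 mM each. Standard groups were 2-cell embryos at 34 h (n = 3), 42 h (n = 4), 48 h (n = 3) and 52 h (n = 3), 4-cell embryos at 55 h (n = 4) and 62 h (n = 4), 8-cell embryos at 66 h (n = 3) and 74 h (n = 2), morulae at 78 h (n = 6), 16-cell embryos at 80 h (n = 5), 32-cell embryos at 90 h (n = 4) and blastocysts at 114 h (n = 4). Embryos without pyruvate but with lactate and glucose were sampled at 42 h (n = 4), 48 h (n = 5), 52 h (n = 4) and 55 h (n = 4), all labelled 2-cell, and as morulae at 78 h (n = 5) and blastocysts at 114 h (n = 5). A further group of pyruvate-free morulae (n = 4) received KY-PYR-9 at 20 nM, which the labels call a myc inhibitor. Lactate was left out for a group of morulae (n = 5) and one of blastocysts (n = 4), with pyruvate and glucose kept. The number of embryos in a library and the hour at which pyruvate was withdrawn are not given in the sources used here. The p-values therefore measure only the spread between libraries, and in whole embryos fewer cells with a transcript cannot be told apart from less transcript per cell. Read depth inferred from the smallest step between values was 10.2 to 42.6 M reads a library, which gives a relative counting SD of 31.3% to 15.3% at 1 CPM. Summed markers of cumulus cells stayed at or below 28.6 CPM and those of sperm at or below 4.23 CPM in any library. Summed blood markers reached 88.5 CPM, in pyruvate-free embryos at 55 h.

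The members are mostly copies of one another. Of 131 with a match in GENCODE vM21 (GRCm38), 112 (85.5%) carry provisional Gm symbols, against 10.9% of the 4831 other genes that reached 20 CPM at 42 h. They had a median of 2 exons and a transcript length of 1322 bases, against 7 exons and 3103 bases in those other genes. The annotation counts 85 of them as protein coding, 31 as pseudogenes and 11 as long noncoding RNAs. Sequence identity of at least 80% over at least 50% of the shorter transcript joined 112 members into 16 families, and 105 lay within 500 kb of another member. Reads from such copies cannot always be assigned, so the level of a single copy is uncertain and families are described by their sums. In 4 pairs (Gm48419 and Gm48423, Gm9040 and Gm9044, Gm6763 and Gm8764, Gm20765 and Gm21312) both copies had the same value in every library to within 0.1%. Whether reads were counted by strand is not given in the sources used here, so overlapping genes on opposite strands cannot be told apart either.

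By role, the largest group resembles genes of protein synthesis and RNA handling. The 18 Eif1a-like genes, copies of the translation start factor Eif1a, fill 829 kb of chromosome 12 (87494721 to 88324026) together with Gm16381 and Gm2001, which are copies of the ubiquitin-like Ubl5. The 11 Alyref-like genes, related to an adaptor of mRNA export, lie at chromosome 10 (104142987 to 104196522) and on chromosome 1. The 6 Cdc5l-like genes, related to a spliceosome component, lie at chromosome 10 (118243800 to 118348679). A second set is related to families set aside by symbol. It comprises 13 Tdpoz-like genes (TRAF and BTB domains, most of them at chromosome 3, 93727026 to 94266784), 10 Tcstv-like genes (9 of them at chromosome 13, 119836006 to 120308779) and 4 Pramef25-like genes (leucine-rich repeat proteins, chromosome 4). The remaining families are 12 genes on chromosome 7, 11 genes at chromosome 4 (73401032 to 73920760), 8 noncoding genes on chromosomes 13 and 15, 5 Tmem92-like genes on chromosome 11 and 4 satellite-like transcripts. Pairs and single genes made up the other 30. Among them are Zfp352 (chromosome 4, 90218820 to 90225702), a zinc finger gene much used as a marker of the 2-cell state, and Fundc1 (X chromosome, 17556564 to 17572325), a receptor for the removal of mitochondria by autophagy.

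RefSeq (GRCm38.p6) held a promoter window, from 250 bases before to 50 after the annotated start, for 42 of the 132 members. The windows below run 5′ to 3′ on the gene's strand. Those of Gm4340 and Gm10668, from different families, hold similar stretches before the start. Capitals mark GGATTA or its reverse complement TAATCC, letters bound by homeodomain factors of the Otx and Obox type, TATAAA on either strand, and the Nr5a2 motif TCAAGGTCA.
Gm4027 (Eif1a-like; chr12:87618659-87618958, plus strand): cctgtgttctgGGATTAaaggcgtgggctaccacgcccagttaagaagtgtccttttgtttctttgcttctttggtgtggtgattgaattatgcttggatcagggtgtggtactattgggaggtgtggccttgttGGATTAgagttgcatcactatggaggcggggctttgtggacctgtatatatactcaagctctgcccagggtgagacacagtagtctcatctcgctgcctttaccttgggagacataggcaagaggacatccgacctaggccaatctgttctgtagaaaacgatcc
Gm4340 (Alyref-like; chr10:104193792-104194091, plus strand): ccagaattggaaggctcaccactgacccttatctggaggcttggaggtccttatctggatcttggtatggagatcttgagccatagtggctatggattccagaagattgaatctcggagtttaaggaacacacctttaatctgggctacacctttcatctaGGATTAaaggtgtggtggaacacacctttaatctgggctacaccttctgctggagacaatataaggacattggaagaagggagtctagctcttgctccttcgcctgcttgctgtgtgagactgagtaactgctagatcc
Gm428 (chromosome 4 family; chr4:73683264-73683563, plus strand): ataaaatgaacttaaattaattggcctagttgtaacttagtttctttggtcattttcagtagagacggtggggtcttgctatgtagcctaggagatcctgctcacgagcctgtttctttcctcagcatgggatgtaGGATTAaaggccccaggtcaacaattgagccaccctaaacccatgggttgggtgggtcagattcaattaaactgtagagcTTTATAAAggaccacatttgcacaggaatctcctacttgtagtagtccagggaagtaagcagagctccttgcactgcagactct
Gm10668 (chromosome 7 family; chr7:20730575-20730874, minus strand): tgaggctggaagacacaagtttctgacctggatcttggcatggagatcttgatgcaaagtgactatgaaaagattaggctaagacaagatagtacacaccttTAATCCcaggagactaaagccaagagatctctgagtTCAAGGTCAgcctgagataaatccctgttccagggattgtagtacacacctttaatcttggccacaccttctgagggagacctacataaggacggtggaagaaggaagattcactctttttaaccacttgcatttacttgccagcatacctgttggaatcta
Zfp352 (zinc finger gene; chr4:90218570-90218869, plus strand): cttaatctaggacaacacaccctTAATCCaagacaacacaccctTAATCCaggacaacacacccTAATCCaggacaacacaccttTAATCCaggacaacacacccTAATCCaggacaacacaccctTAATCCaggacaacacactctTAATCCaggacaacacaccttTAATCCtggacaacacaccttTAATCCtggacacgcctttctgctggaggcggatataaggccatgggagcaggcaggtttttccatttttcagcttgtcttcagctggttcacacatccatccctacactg
Gm13043 (Pramef25-like; chr4:143511093-143511392, plus strand): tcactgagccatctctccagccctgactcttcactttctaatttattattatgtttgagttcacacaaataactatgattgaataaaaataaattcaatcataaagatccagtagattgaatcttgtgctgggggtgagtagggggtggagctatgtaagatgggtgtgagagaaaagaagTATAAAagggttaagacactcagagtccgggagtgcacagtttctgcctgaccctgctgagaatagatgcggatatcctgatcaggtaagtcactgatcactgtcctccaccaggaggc

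GGATTA, searched on both strands, was present in 26 of the 42 member windows (61.9%) and in 7.06% of the 32851 RefSeq windows of that length. It was found in all 6 Alyref-like windows, all 6 of the chromosome 4 family, all 3 Tcstv-like windows, 3 of 5 Eif1a-like windows and 5 of 9 of the chromosome 7 family, and in none of the 3 Pramef25-like windows. The window of Zfp352 held 9 copies. TATAAA was present in 28.6% of member windows against 13.6% of all, with every window of the chromosome 4 and Pramef25-like families among them. The Nr5a2 motif TCAAGGTCA occurred in 5 member windows (11.9%, all of the chromosome 7 family) and in 0.423% of all windows. CCAAT was about as frequent in members (42.9%) as in all windows (37.4%), whereas the GC box GGGCGG stood in 4.76% of member windows and 35.7% of all. Neither the E-box CACGTG (7.15% of all windows) nor the motif of Dux (0.0335% of all) occurred in a member window. These counts describe letters only. Some copies share their starts. Compared base by base without gaps, the Alyref-like windows were 99.7% to 100% identical, and the highest identity of a pair was also 100% in the Pramef25-like, chromosome 4 and chromosome 7 families, although the median pair there stood at 26.3% to 29%. The Eif1a-like windows were 22% to 28.3% identical, but without gaps a small shift of the annotated start also gives such low values. Low values therefore do not show unlike starts. As some windows are near copies, they are not all independent, and the common B1 repeat carries GGATTA as well.

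In standard medium the 132 transcripts together made up 0.0793%, 0.0873% and 0.0796% of the library at 34 h. At 42 h they made up 4.39%, 4.62%, 3.10% and 3.70%. The sum then fell to between 1.30% and 1.69% at 48 h, 0.437% to 0.619% at 52 h and 0.0592% to 0.0758% in early 4-cell embryos at 55 h. These levels at 34, 42 and 55 h are what the choice required. They show the scale of the burst, which reached several percent of all reads at its height. At 48 h, an age the choice did not use, 9 of the 132 genes had a higher mean than at 42 h.

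**Figure D1:**
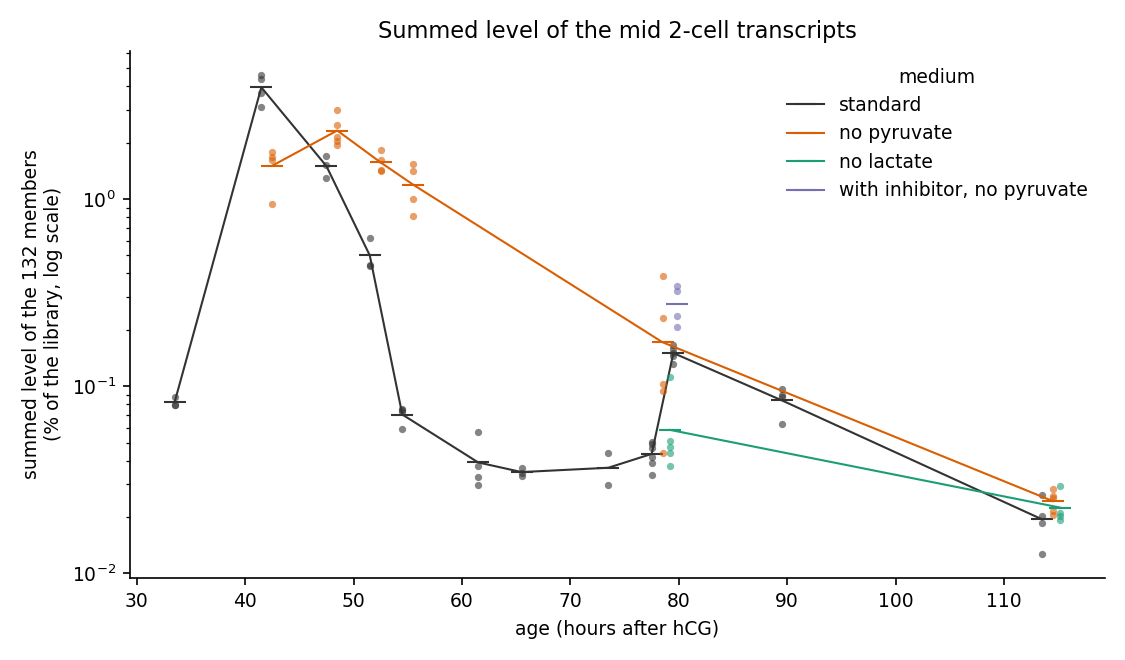
Summed level of the 132 members as a percentage of each library (log scale) against age in hours after hCG, with points for libraries and dashes joined by lines for group means, slightly offset by medium. Standard embryos (black) peak at 42 h and lie between 0.0592% and 0.0758% at 55 h, when pyruvate-free embryos (orange) still lie between 0.810% and 1.55%.

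Neither 48 nor 52 h entered the choice, but genes that had to be high at 42 h and low at 55 h must fall somewhere between, so the fall from 48 to 52 h in standard medium is partly built in. Of the 132 members, 120 fell and none rose, against 12.9% of the 20995 genes tested that fell and 13.6% that rose (limma, adjusted p below 0.05). The median member changed by -1.56 on the log2(CPM + 1) scale and the median gene by -0.02. That scale, used for every change below, understates the change of low genes. Gm13043, a Pramef25-like gene, stood at 83.8, 68.6 and 127 CPM at 48 h and 8.98, 21.2 and 6.69 CPM at 52 h, with no overlap (log2 change -2.93, SE 0.38, adjusted p = 3.3e-07). None of the 4 satellite-like genes passed the test. The other 8 that did not pass were 3 Eif1a-like genes, 1 Alyref-like gene and 4 pairs or single genes. From 52 to 62 h, in late 4-cell embryos, all 132 fell (39.6% of all genes fell, median -0.35), which the low level required at 55 h largely fixes. Zfp352 went from 94.9 to 103 CPM to 0 to 2.87 CPM in that interval (log2 change -5.41, SE 0.36, adjusted p = 1.1e-15).

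At 42 h, embryos without pyruvate had already begun the burst, but unevenly. The summed members made up 1.62%, 1.77%, 0.944% and 1.68% of the 4 libraries, library 3 lying below the others. In 118 of the 132 members all 4 pyruvate-free libraries lay below all 4 standard ones, a count that was not taken over all genes. The median member stood at 23.0% of its standard 42 h mean, with a range from 2.48% to 149%. The families differed in this share. The median was 90.1% for the Alyref-like genes, 5 of which lay above the standard mean, 55.4% for the Eif1a-like genes, 54.9% for the Pramef25-like, 47.9% for the Tcstv-like and 45.9% for the chromosome 4 family. It was 12.2% for the chromosome 7 family, 10.3% for the noncoding family and 16.4% for the Tmem92-like genes. Since the members were chosen for being high in standard embryos at 42 h, a lower value in another group is partly built into the choice, and no test is given. The order of the families was not part of the choice.

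**Figure D2:**
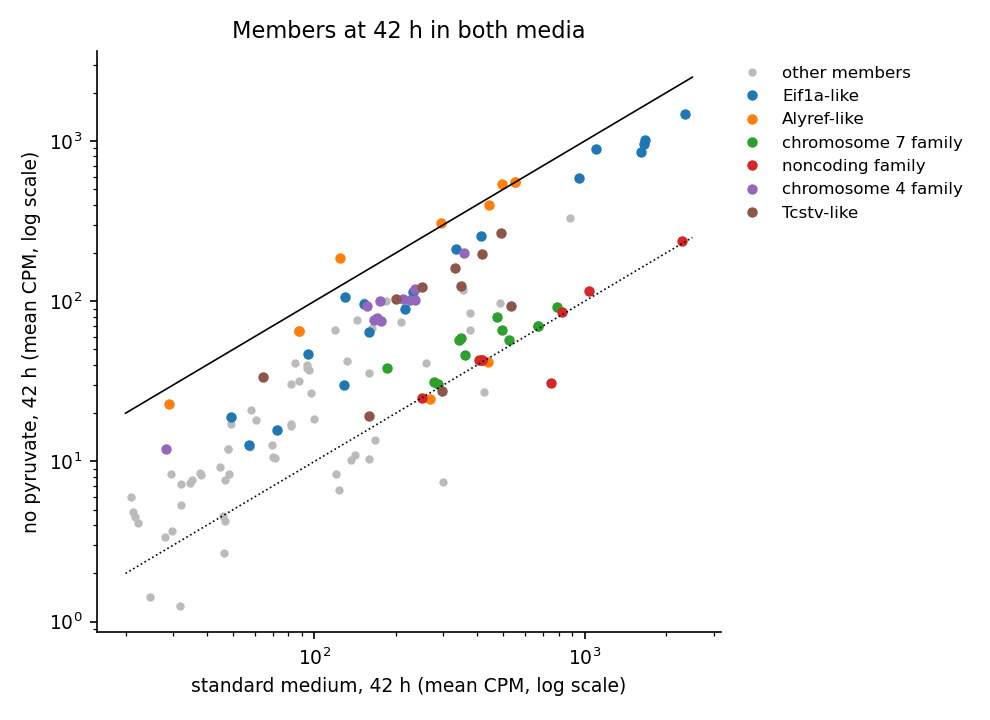
Mean level of each member at 42 h without pyruvate against its mean at 42 h in standard medium (CPM, log scales); the solid line marks equal levels, the dotted line 10% of the standard level, and colours mark families. Alyref-like genes (orange) lie around the solid line at a median of 90.1%, and the noncoding family (red) lies along the dotted line at a median of 10.3%.

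Single genes show the same range. Gm4340, an Alyref-like gene, stood at 522, 556, 446 and 449 CPM in standard embryos at 42 h and at 556, 609.7, 403 and 585 CPM without pyruvate. These values overlap. Gm2016, an Eif1a-like gene, stood at 1955, 2079.9, 1203 and 1399 CPM in standard embryos. Without pyruvate it stood at 1145, 1207, 447 and 1038 CPM, so that only library 3 was far below the rest. Gm5157 of the chromosome 7 family stood at 662, 549.7, 378 and 516 CPM against 55.4, 59.2, 46.0 and 68.6 CPM, and Gm49187 of the noncoding family at 2575, 2607, 1780.0 and 2234 CPM against 238, 277, 151 and 285 CPM. For both of these the groups were well apart. Zfp352 and Fundc1 belonged with the low group at 42 h. Zfp352 stood at 547, 508, 405 and 489.7 CPM in standard embryos and 82.1, 83.5, 100.3 and 122 CPM without pyruvate, and Fundc1 at 424, 432, 297 and 352 CPM and 92.6, 105, 48.5 and 90.6 CPM.

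From 42 to 48 h without pyruvate, a step in which the choice had no part, 98 members rose and 6 fell. Over all genes 51.5% rose and 3.43% fell, with a median of 0.58, so the members' median of 1.31 has to be read against a general shift. When libraries were rescaled by median ratios or quantiles, which bring the median gene to 0.11 and -0.04, the split was 59 to 25 and 64 to 13. Of all 20995 genes, 4579 (21.8%) rose and 3011 (14.3%) fell with median ratios. With quantiles 3566 rose and 3538 (16.9%) fell. The families that were low at 42 h rose: all 12 of the chromosome 7 family, all 8 noncoding genes, all 5 Tmem92-like genes and 29 of the 30 pairs and single genes. Under median-ratio scaling these counts were 9, 8, 5 and 20. The low level and the rise rest on the same pyruvate-free libraries at 42 h, so this link is partly built in. The 11 genes of the chromosome 4 family and the 13 Tdpoz-like genes also rose, but only 2 and 6 of them did so with median-ratio scaling. None of the 18 Eif1a-like genes rose and 4 fell (15 with median-ratio scaling), and of the Alyref-like genes 2 rose and 2 fell (2 and 9).

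Gm5117, a copy of Tgs1, an enzyme that methylates the caps of small nuclear RNAs, rose from 22.3, 21.2, 23.7 and 40.7 CPM to 357, 245, 244, 298 and 328 CPM (log2 change 3.44, SE 0.24, adjusted p = 9.6e-15). Tgs1 itself rose in the same step, from 3.05 ± 0.304 CPM (SD, n = 4) to 32.7 ± 9.17 CPM (SD, n = 5) (log2 change 3.02, adjusted p = 1.3e-16), and as the transcripts are 95% identical over 2565 aligned bases, reads may be shared between them. Zfp352 reached 466, 486, 402, 412 and 483 CPM at 48 h (log2 change 2.22, SE 0.31, adjusted p = 1.8e-07). Fundc1 reached 301, 291, 265, 336 and 589 CPM (log2 change 2.06, SE 0.26, adjusted p = 1.4e-08), library 5 standing above the others. For these 3 genes the libraries at 42 and 48 h did not overlap. The Eif1a-like gene Gm2016 stood at 667, 1044, 675, 758 and 1073 CPM at 48 h (log2 change -0.12, adjusted p = 0.75), within the range of its levels at 42 h. Gm6489, an Alyref-like gene from chromosome 1, fell by 1.33 on the log2 scale (adjusted p = 5.9e-04).

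Families without pyruvate parted in when they were highest. Among the 4 ages sampled without pyruvate, the mean was highest at 42 h for 23 members, 14 of them Eif1a-like and 9 Alyref-like. It was highest at 48 h for 76, including every gene of the chromosome 7, noncoding, Tcstv-like and Tmem92-like families and 10 of 11 of the chromosome 4 family. It was highest at 52 h for 14, including 4 of 6 Cdc5l-like genes, and at 55 h for 19, including all 4 Pramef25-like, all 4 satellite-like and 7 of 13 Tdpoz-like genes. Neighbouring ages often did not differ beyond the spread of the libraries, so these are orders of means.

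The family sums show this in size. Eif1a-like transcripts summed to 11378 ± 2476 CPM (SD, n = 4) in standard embryos at 42 h and 1066 ± 71.1 CPM (SD, n = 3) at 48 h. Without pyruvate they summed to 6836 ± 2298, 5248 ± 1401, 3249 ± 588 and 1978 ± 974 CPM at 42, 48, 52 and 55 h (SD, n = 4, 5, 4 and 4). That is a steady loss in place of a collapse. The chromosome 4 family summed to 2140.3 ± 346 CPM in standard embryos at 42 h and 485 ± 73.4 CPM at 48 h. Without pyruvate it went from 1059 ± 172 at 42 h to 2344 ± 355 at 48 h and 1746 ± 56.6 CPM at 52 h. Its mean at 48 h thus stood at 109.5% of the standard 42 h level. The noncoding family reached 44.8% at 48 h, the chromosome 7 family 42.3%, the Tcstv-like genes 74.3% and the Tdpoz-like genes 73.6%. The Pramef25-like genes summed to 814 ± 360.0 CPM at 55 h, 136% of the standard 42 h level, with a wide spread. Over all members the median highest mean without pyruvate was 72.3% of the standard 42 h mean, and 29 members exceeded it.

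**Figure D3:**
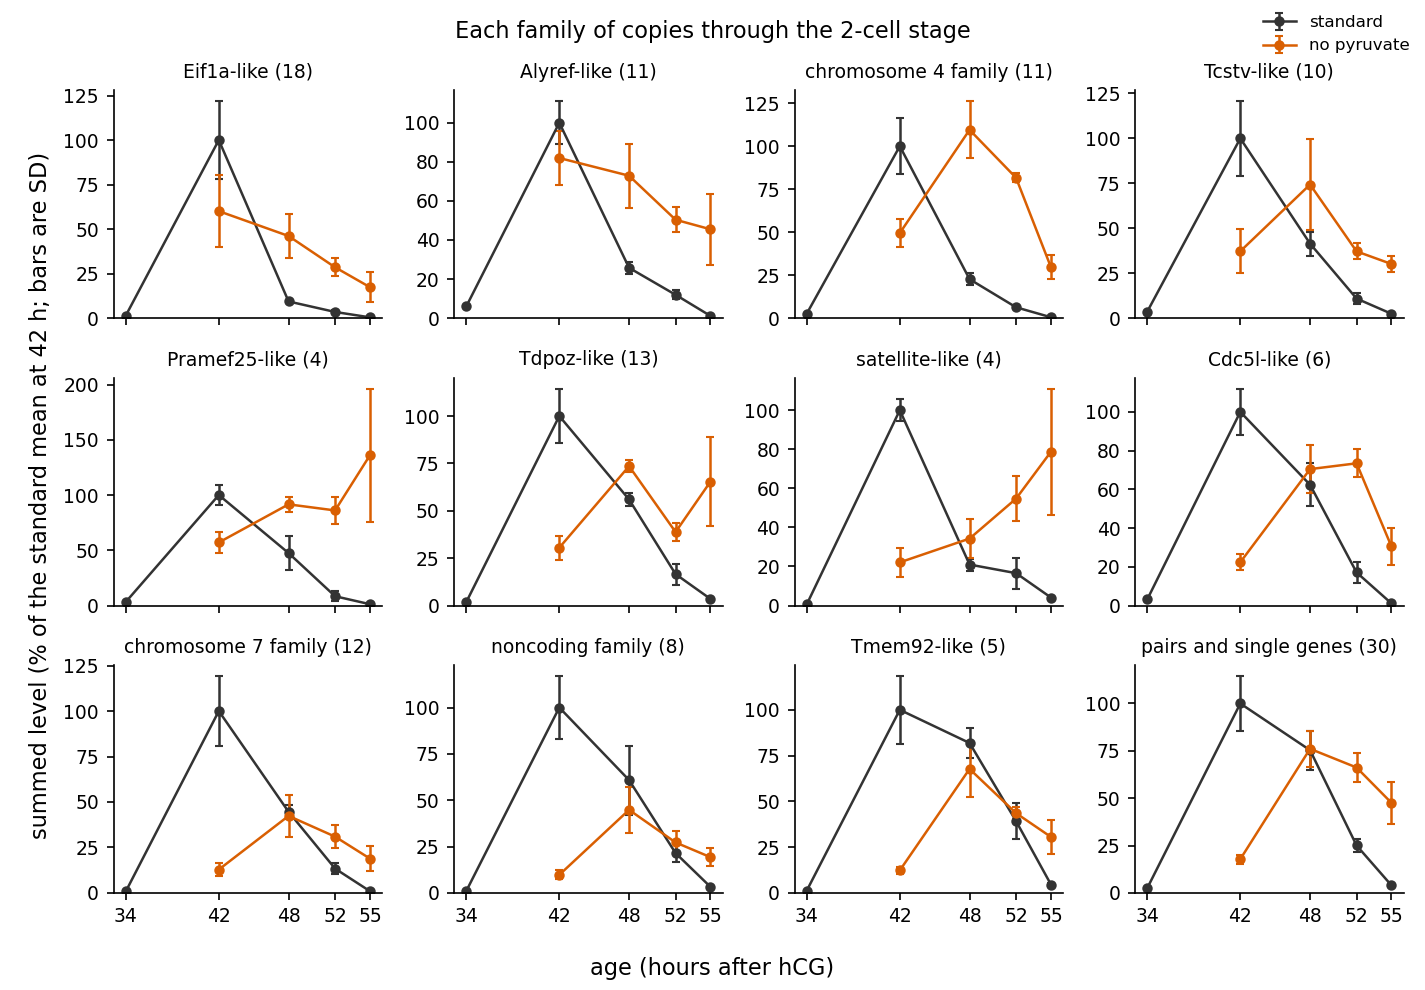
Summed level of each family as a percentage of its standard mean at 42 h, against age in hours after hCG, for standard (black) and pyruvate-free (orange) embryos; points are group means, bars are SD over libraries, and the number of genes is in each title. The Eif1a-like and Alyref-like panels are highest at 42 h in both media, the chromosome 4 family is highest at 48 h without pyruvate, and the Pramef25-like and satellite-like families without pyruvate are highest at 55 h.

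Between 48 and 52 h without pyruvate, 57 members fell and 4 rose, against 12.5% of all genes that fell and 27.0% that rose. The 10 Tcstv-like genes all fell, as did 9 of 18 Eif1a-like, 9 of 13 Tdpoz-like and 6 of 8 noncoding genes. None of the Cdc5l-like or Pramef25-like genes passed the test in either direction. The 4 that rose were Gm5117 and the satellite-like transcripts Gm21738, Gm10717 and Gm26870, the last of which is placed with the single genes. Its transcript repeats with a period of 234 bases (81.5% of bases matched at that shift), the length of the unit of the mouse major satellite. None of the 4 passed with median-ratio scaling. Gm21738 stood at 15.7, 12.0, 12.0, 18.7 and 17.6 CPM at 48 h and 36.8, 21.4, 22.6 and 34.2 CPM at 52 h (log2 change 0.86, SE 0.25, adjusted p = 0.0056). Between 52 and 55 h, 65 members fell and 9 rose, against 25.7% and 33.2% of all genes. The falls included 10 of 11 genes of the chromosome 4 family, all 6 Cdc5l-like genes and 13 of 18 Eif1a-like genes. Of the 9 that rose, 8 were Tdpoz-like (4 with median-ratio scaling).

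Gm10696, a Tdpoz-like gene, was among those 8. It stood at 311, 282, 287, 286 and 267 CPM at 48 h, 213, 199, 217 and 187 CPM at 52 h and 245, 381, 613 and 602 CPM at 55 h (log2 change 1.08, SE 0.20, adjusted p = 1.5e-05 for the last step). The level thus dipped and rose again above its standard 42 h range of 327 to 392 CPM in libraries 3 and 4. The Pramef25-like Gm13043 stood at 202, 160.5, 186 and 144 CPM at 52 h and 153, 220.1, 382 and 376 CPM at 55 h, which did not pass the test (log2 change 0.62, adjusted p = 0.1). At 55 h the same libraries 3 and 4 were highest for both genes. Summed stored egg transcripts were highest in those libraries too, at 2928, 3400, 5278 and 4235 CPM, as were cumulus markers, at 3.93, 7.72, 15.5 and 17.2 CPM. The list of stored egg transcripts used here and below includes the Eif1a-like member Gm2022, so it is not fully separate from the members. Blood markers stood at 58.8, 88.5, 86.8 and 83.6 CPM. Their part in the members' levels was not tested.

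Compared with standard embryos of the same age, members were lower without pyruvate at 42 h but mostly higher later. Since the choice favours a fall in standard medium between 42 and 55 h, higher values without pyruvate at 48 and 52 h are partly built in. At 48 h, 69 were higher and 11 lower, against 22.1% and 33.5% of all genes. The member median was 0.69 and that of all genes -0.14. All 18 Eif1a-like genes, all 11 of the chromosome 4 family, all 4 Pramef25-like genes, 9 of 11 Alyref-like and 7 of 10 Tcstv-like genes were higher. No gene of the chromosome 7 or noncoding family differed by the test, although 5 genes of the chromosome 7 family were higher with median-ratio scaling. Gm4340 stood at 30.0, 31.7 and 41.1 CPM in standard embryos at 48 h and 272, 481, 308, 229.6 and 433 CPM without pyruvate (log2 change 3.25, SE 0.27, adjusted p = 1.6e-12). The lower ones included the processed copies Gm12625 and Gm11949, the latter from Map1lc3b, a component of autophagosomes. Gm12625 stood at 375, 743 and 395 CPM in standard embryos and 132, 113, 90.8, 105 and 171 CPM without pyruvate (log2 change -1.995, SE 0.42, adjusted p = 9.2e-05). For Gm4340 and Gm12625 the groups did not overlap. Fundc1 was higher (log2 change 1.07, adjusted p = 0.0013), and Zfp352 did not pass (log2 change 0.75, adjusted p = 0.062).

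At 52 h, 105 members were higher without pyruvate and 4 lower, against 31.3% and 31.0% of all genes, with a member median of 1.90 and an all-gene median of 0.08. As at 48 h, part of this difference is built into the choice. All 69 that were higher at 48 h were higher again, and 36 were added. The lower ones included Gm11949, Gm12625 and the Tmem92-like Gm11544, which were lower at 48 h too. Gm11544 did not pass with either rescaling. Every gene of the Eif1a-like, chromosome 4, Tcstv-like, Cdc5l-like, Pramef25-like and satellite-like families was higher, as were 10 of 11 Alyref-like genes and 10 of 12 of the chromosome 7 family. No noncoding gene passed, although 4 of the 8 did with median-ratio scaling and 6 with quantile scaling. Gm11238, of the chromosome 4 family, stood at 9.76, 4.38 and 4.81 CPM in standard embryos and 161, 179, 156 and 168 CPM without pyruvate (log2 change 4.58, SE 0.25, adjusted p = 5.9e-17). Fundc1 stood at 57.3, 69.3 and 36.5 CPM against 343, 243, 321 and 216 CPM (log2 change 2.37, SE 0.29, adjusted p = 9.6e-09). Zfp352 stood at 103, 94.9 and 103 CPM against 411, 318, 312 and 361 CPM (log2 change 1.79, SE 0.36, adjusted p = 4.7e-05). In all 3 genes the media were clearly apart at this age.

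Whether the step from 48 to 52 h itself differed between media was tested as an interaction. Since the choice favours a fall in standard medium, a less negative step in the other medium is partly built in. For 49 members the step was less negative without pyruvate and for none more negative, against 8.69% and 3.52% of all genes, with a member median of 1.05 and an all-gene median of 0.22. They included all 6 Cdc5l-like genes, all 4 Pramef25-like genes and 10 of 11 of the chromosome 4 family, but 1 of 18 Eif1a-like and none of the noncoding genes. The largest difference was that of Gm13043, which fell by 2.93 in standard medium and changed by 0.01 without pyruvate (difference 2.94, SE 0.49, adjusted p = 2.6e-04). Rfpl4b, a Ret finger protein-like gene, had a difference of 2.43 (adjusted p = 6.9e-04), and that of Fundc1 was 1.30 (adjusted p = 0.031).

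**Figure D4:**
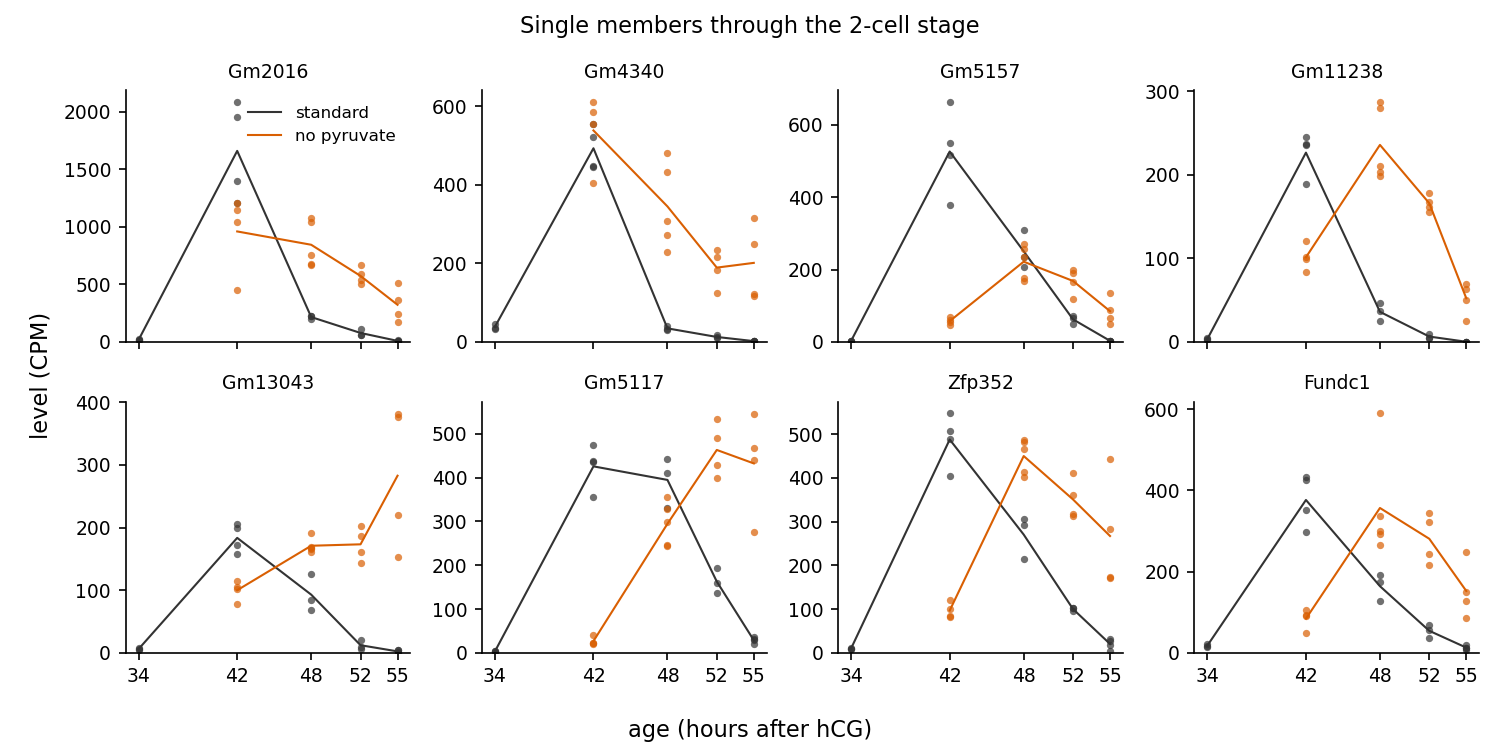
Level in CPM of 8 members against age in hours after hCG, with points for libraries and lines through group means, for standard (black) and pyruvate-free (orange) embryos. Gm2016 and Gm4340 are highest at 42 h in both media, Gm5157, Gm11238, Zfp352 and Fundc1 are highest at 48 h without pyruvate, and Gm13043 and Gm5117 stay high to 55 h.

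At 55 h the labels call standard embryos early 4-cell and pyruvate-free embryos 2-cell. All pyruvate-free libraries lay above all standard ones in 128 of 132 members, a count that was not taken over all genes. The summed members made up 0.810%, 1.00%, 1.55% and 1.41% of the pyruvate-free libraries and 0.0748%, 0.0592%, 0.0724% and 0.0758% of the standard ones. The standard level at this age was part of the choice, so the contrast is a description. Gm2016 stood at 244, 170.4, 509 and 364 CPM without pyruvate and 14.4, 9.03, 5.40 and 4.19 CPM in standard 4-cell embryos, and Gm5117 at 275, 546, 467 and 441 CPM and 31.4, 19.3, 28.4 and 36.6 CPM.

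Other transcripts of this stage were compared in the same way. Over all genes 22.1% were higher and 33.5% lower without pyruvate at 48 h, and 31.3% and 31.0% at 52 h. Of 59 tested genes of the families set aside by symbol, 31 were higher and 16 lower without pyruvate at 48 h, and 37 were higher and 6 lower at 52 h. Stored egg transcripts, a list that includes the member Gm2022, were also higher, 23 of 29 tested at 48 h and 24 of 29 at 52 h. Of 24 tested regulators of the 2-cell programme, 1 was higher and 14 lower at 48 h, and 2 were higher and 12 lower at 52 h. Their list includes Dppa2, Dppa4, and chromatin assembly and repressor genes, and not every listed gene was measured. Of the blood markers 2 could be tested, and both were lower at each of these ages. The part of stored transcripts, of blood markers or of embryo stage in the members' levels was not tested. Eif1a, Cdc5l and Alyref, which 3 of the families resemble, were not higher with their copies. At 52 h Eif1a stood at 205 ± 26.2 CPM (SD, n = 3) in standard embryos and 71.3 ± 15.8 CPM (SD, n = 4) without pyruvate (log2 change -1.53, adjusted p = 1.1e-08), while all 18 of its copies were higher. Cdc5l was lower too (log2 change -1.41, adjusted p = 1.1e-07), while its 6 copies were higher. Alyref did not pass (log2 change -0.57, adjusted p = 0.057).

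After the 2-cell stage the members remained low in standard medium, apart from a few. The sum lay between 0.0296% and 0.0569% of a library from 62 to 74 h, and 3 members had a mean of at least 20 CPM in each of the groups at 62, 66 and 74 h. In 16-cell embryos at 80 h the sum was 0.132% to 0.166%. Among its largest parts were the noncoding Gm49064 and Gm49187 and the processed copies Gm12625 and Gm11949. Gm49064 stood at 470.2, 596, 629.9, 570.3 and 578 CPM at 80 h, against from 87.5 through a median of 150.2 to 188 CPM in the 6 morula libraries at 78 h. For this gene the morulae and the 16-cell embryos did not overlap, although their ages differ little. By the blastocyst stage Gm49064 stood at 3.99, 1.92, 2.35 and 4.47 CPM.

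Morulae that had developed without pyruvate carried more of the 2-cell transcripts. Their summed level was 0.0943%, 0.0440%, 0.102%, 0.230% and 0.387% of the 5 libraries, against 0.0335% to 0.0505% in the 6 standard libraries. Libraries 4 and 5 were far above library 2. Of the 118 members that passed the filter, 92 were higher and none lower, against 32.8% and 6.62% of all genes. Of those 118, 58 passed the filter only through pyruvate-free groups, so that count is a description. Without a filter, 76 of all 132 were higher and 1 lower (19.5% and 2.69% of all genes). In 22 of the 132 all pyruvate-free libraries lay above all standard ones, a count that was not taken over all genes. Without libraries 4 and 5, chosen for removal after their values were seen, 41 of the 104 then tested were higher and 4 lower (29.9% and 7.59% of all genes). Higher genes came from the Eif1a-like (15 of 17), Pramef25-like (4 of 4), Tdpoz-like (11 of 12), Alyref-like (10 of 11) and Tcstv-like (10 of 10) families. Without that pair of libraries these counts were 9, 4, 5, 2 and 1.

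Gm2016 stood at 43.8, 16.9, 72.0, 182 and 309 CPM in pyruvate-free morulae and from 0.502 through a median of 1.32 to 4.74 CPM in standard ones. It was higher in every library (log2 change 5.03, SE 0.76, adjusted p = 2.2e-05), as was its relative Gm5662 at 64.8, 19.7, 70.6, 193 and 415 CPM (log2 change 4.72, SE 0.79, adjusted p = 6.8e-05). The Tdpoz-like Gm10696 stood at 14.2, 3.66, 14.3, 93.5 and 183 CPM, against from 1.23 through a median of 2.73 to 3.62 CPM (log2 change 2.98, SE 0.70, adjusted p = 0.002), its library 2 barely above the standard range. Fundc1 was even across libraries, at 46.0, 37.9, 48.3, 39.1 and 53.8 CPM against from 14.6 through a median of 21.6 to 29.6 CPM (log2 change 1.07, SE 0.19, adjusted p = 1.3e-04). Stored egg transcripts, a list that includes the member Gm2022, were also highest in libraries 4 and 5. The summed level of 29 of them was 547, 704, 584, 1023 and 1251 CPM in the 5 pyruvate-free libraries and 331 to 732 CPM in standard morulae. Of these genes 6 were higher and 1 lower among 26 tested, against 32.8% and 6.62% of all genes. The same pair of libraries was highest in trophectoderm markers, at 825, 786, 677, 1657 and 1415 CPM, and in blood markers, at 6.71, 5.67, 8.35, 18.9 and 16.7 CPM. The part of these lists in the members' levels was not tested. Eif1a itself did not pass in morulae (log2 change 0.11, adjusted p = 0.59).

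With KY-PYR-9 added to pyruvate-free medium, a few processed copies and noncoding genes rose steeply. The summed level was 0.342%, 0.321%, 0.206% and 0.236% of the 4 libraries. Gm12625 stood at 588, 438, 336 and 391 CPM with the compound and 8.79, 14.0, 12.4, 10.4 and 26.8 CPM without it (log2 change 4.90, SE 0.31, adjusted p = 4.0e-11). Gm11949 stood at 205, 188, 178 and 211 CPM against 7.91, 12.7, 11.5, 26.6 and 90.0 CPM (log2 change 3.24, SE 0.58, adjusted p = 4.3e-05). For both copies the groups did not overlap. Map1lc3b itself changed by 0.71 (adjusted p = 5.6e-04). The noncoding Gm49064 stood at 1198, 830.1, 749 and 878 CPM against 85.2, 99.9, 60.6, 167 and 189 CPM (log2 change 3.02, SE 0.26, adjusted p = 3.5e-09), and 4 of the 8 noncoding genes were higher, 8 of 8 with either rescaling. Trophectoderm markers were lower in the same libraries, at 214 to 296 CPM against 677 to 1657 CPM (10 of 12 lower). The families set aside by symbol were higher in sum, at 12029 to 13361 CPM against 1961 to 2484 CPM, although 7 of 39 tested were higher and 17 lower. Over all genes 8.61% were higher and 67.1% lower, so both counts have to be read against a general shift. The part of either list in these values was not tested.

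Of the 118 members tested, 58 passed the filter only through the pyruvate-free groups compared here, so the counts are a description. With the compound 11 were higher and 50 lower, against 8.61% and 67.1% of all genes, whose median was -0.90. The member median was -0.93. The direction of the whole set therefore rests on the scaling, with 23 higher and 15 lower under median ratios (21.9% and 29.4% of all genes) and 25 and 10 under quantiles (20.7% and 22.4%). Without a filter 32 were lower (36.2% of all genes). It also rests on the high pair of pyruvate-free libraries, without which 17 of 104 were higher and 13 lower (9.18% and 62.6% of all genes). Fundc1 fell to 15.9, 22.1, 10.7 and 14.0 CPM (log2 change -1.50, SE 0.21, adjusted p = 2.1e-06) and Gm5117 to 3.85, 3.81, 2.66 and 2.17 CPM (log2 change -2.19, SE 0.53, adjusted p = 8.7e-04). For both the groups did not overlap. With median-ratio and quantile scaling Fundc1 changed by -0.52 and -0.44 (adjusted p = 0.065 and 0.13), and with quantile scaling Gm5117 by -1.14 (adjusted p = 0.082). Gm2016 stood at 35.7, 65.9, 9.20 and 4.48 CPM, so that libraries 1 and 2 were within the pyruvate-free range and the others below it. It was lower by the test (log2 change -2.06, SE 0.84, adjusted p = 0.031), as were 3 further Eif1a-like genes, but no Eif1a-like gene was lower with either rescaling.

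**Figure D5:**
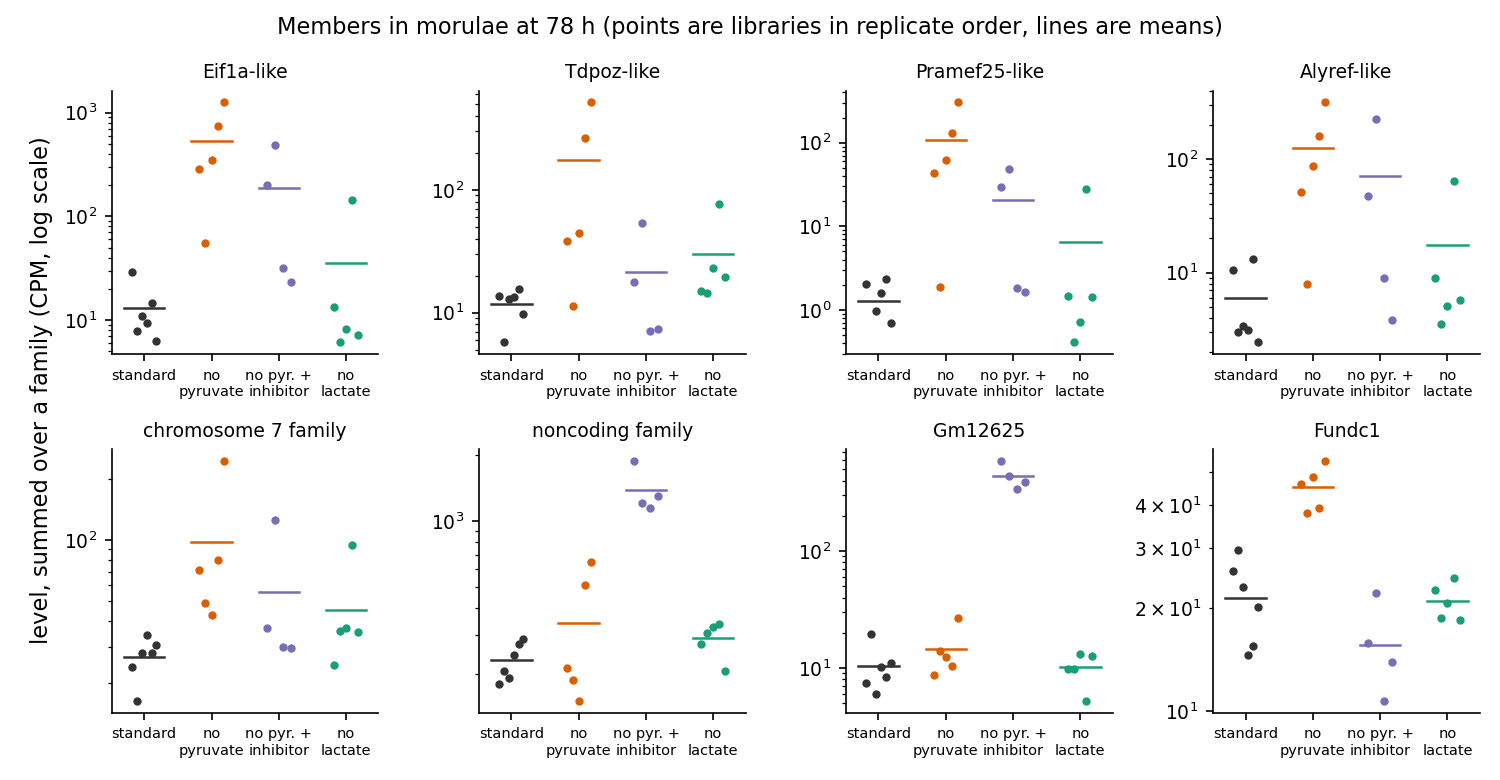
Summed level in CPM (log scale) of 6 families, and the level of Gm12625 and Fundc1, in morulae at 78 h in each medium; points are libraries in replicate order and lines are means. In the Eif1a-like, Tdpoz-like, Pramef25-like and Alyref-like panels the pyruvate-free libraries are spread widely, Gm12625 is at 336 to 588 CPM with the inhibitor, and 1 library of the morulae without lactate stands above the others in the Eif1a-like, Tdpoz-like, Pramef25-like, Alyref-like and chromosome 7 panels.

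Morulae without lactate differed little in these genes. Of 118 tested, 4 were higher and 2 lower, against 8.37% and 3.42% of all genes. The lower ones included Gm11949 (log2 change -2.39, adjusted p = 0.0048). The higher ones, named after their values were seen, were the Tmem92-like Gm11544 and Gm11546, the Tcstv-like Gm21731 and Id1, an inhibitor of helix-loop-helix factors. The summed level was 0.0442%, 0.0473%, 0.0512%, 0.112% and 0.0373%, library 4 being above the others. Gm2016 stood at 22.7 CPM in that library and at or below 2.59 CPM in the others. Fundc1 stood at 22.6, 18.7, 20.8, 24.5 and 18.5 CPM, within the standard range.

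In blastocysts at 114 h, 99 of the 132 members did not pass the filter on low values. Of the 33 that did, 20 were higher and 4 lower without pyruvate, but 80.8% of all genes were higher and 7.14% lower, with a median of 1.15. With rescaling by median ratios or quantiles the split was 4 to 7 (30.4% and 26.1% of all genes) and 3 to 9 (26.3% and 20.1%). Of the 33, 7 passed the filter only through the pyruvate-free group, so these counts are a description. All 8 noncoding genes were among the 20, and none of them passed with either rescaling. Fundc1 stood at 81.4, 70.2, 78.5, 77.5 and 66.5 CPM without pyruvate and 22.9, 20.9, 23.0 and 27.4 CPM in standard blastocysts, with no overlap (log2 change 1.63, SE 0.14, adjusted p = 7.9e-09). With median-ratio scaling its change was 0.32 (adjusted p = 0.065). Without lactate 8 members were higher and none lower, against 14.0% and 9.29% of all genes. They were 7 of the 8 noncoding genes and the Tdpoz-like Gm9131, while 3 and 2 members were lower under median ratios and quantiles.

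Fundc1 is a single-copy member that stayed measurable at every age. In standard medium its means, from 34 to 114 h, were 17.8, 376, 164, 54.4, 13.0, 25.6, 27.3, 22.7, 21.4, 21.1, 32.7 and 23.5 CPM. Without pyruvate they were 84.3, 357, 281, 152, 45.0 and 74.8 CPM at 42, 48, 52, 55, 78 and 114 h. By these means the gene was lower than standard at 42 h and higher at each later age sampled in both media. The standard levels at 42 and 55 h were part of the choice. Of all genes tested, 32.8% were higher without pyruvate at 78 h and 80.8% at 114 h. With median-ratio scaling Fundc1 did not pass at 114 h.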

How the data were processed

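Whole embryos were profiled by Smart-seq2, per the labels' protocols. Per the submitters' processing notes, the authors used STAR 2.6.1d and the mm10 build. The deposited values are CPM with an offset of 0.0001, and of 91 columns 85 were matched to samples by name and 6 were not used. Another 26 entries named by numbers were left out. Estimated reads were not whole (69.8% to 78.5% of values up to 20 reads lay within 0.1 of a whole number), so the tests planned for counts were replaced by the planned test for CPM.

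Values were analysed as log2(CPM + 1) with the moderated, mean-trended test of limma (version 3.58.1, R 4.3.3), p-values being adjusted by Benjamini-Hochberg over all genes and called below 0.05. A gene entered a fit when it exceeded 1 CPM in 3 or more of its libraries. One fit held the groups from 34 to 62 h, one the morulae and one the blastocysts, with 13 comparisons. The test was checked on simulated data. Families came from alignment of GENCODE vM21 transcripts, and promoter windows from RefSeq. Other steps used Python 3.11.15, numpy 2.4.6, pandas 2.3.3 and matplotlib 3.10.9.

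The members, gene lists and tests were chosen with earlier results of these data known. Genes named were the 10 with the highest ratio, the 10 highest at 42 h, the 10 highest at 62 h or later, and up to 6 rises and 6 falls per comparison with no overlap and at least 20 CPM. Others (Id1, Gm11544, Gm11546, Gm21731, Gm10717, Gm26870, Gm9131) and the windows shown were picked after their values were seen. Alternatives were another pseudocount (0.1), no filter, 2 rescalings, a replicate block, fits with only the groups compared and leaving out libraries. The values of 1 member are not reported here.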

Additional observations from a re-analysis of the deposited data

Results flagged for a closer look

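Among 101 sets of libraries examined (the members together and each family in each group of 4 to 10 libraries, where the highest summed level reached 0.005% of a library, or 50 CPM), 9 had 1 library apart from the rest. Chance alone gives about 1 in 20 sets. In 6 of them it was library 4 of the morulae without lactate, which was the highest. It held 0.112% of its reads in the members, against 0.0512% in the next library. Eif1a-like genes made up 0.0144% against 0.00135%, Tcstv-like genes 0.0139% against 0.00187%, Tdpoz-like genes 0.00768% against 0.00229%, the chromosome 7 family 0.00941% against 0.00372%, and Alyref-like genes 0.00637% against 0.000891%. Its summed stored egg transcripts were within the range of the other libraries of the group, 657 to 743 CPM.

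The chromosome 7 family was also apart in library 2 of the morulae with the inhibitor, at 0.0126% against 0.00372%. It was apart in library 5 of the pyruvate-free morulae too, at 0.0244% against 0.00797%. The chromosome 4 family was lowest in pyruvate-free library 3 at 42 h, at 0.0805% against 0.111%. No cause of these values was tested.

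The step from 48 to 52 h differed between media for 49 members by the interaction in limma, the step being less negative without pyruvate in each.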

How the results depend on the processing

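Under the alternatives 1388 values for single genes and minor directions kept their size and call, against 52 that moved and 32 that lost it. Named genes with very small changes, such as Gm2016 from 42 to 48 h without pyruvate, have no sure direction. Rescaling mattered most, since by median ratios and quantiles the median of all genes moved from 0.58 to 0.11 and -0.04 for 42 to 48 h without pyruvate, from -0.90 to -0.21 and -0.10 for the inhibitor, and from 1.15 to 0.14 and 0.14 for blastocysts without pyruvate. Members that rose from 42 to 48 h without pyruvate were 59 with median-ratio and 64 with quantile scaling (98 otherwise). Those lower with the inhibitor were 15 and 10 (50), and those higher in blastocysts without pyruvate 4 and 3 (20). With quantile scaling 57 members were higher in pyruvate-free morulae (92), and with median ratios 87 fell from 48 to 52 h without pyruvate (57). With a pseudocount of 0.1, 34 fell in that step, and 26 differed in it between media (49). Fits with only the groups compared gave 78 for that difference and 7 for the rise without lactate in morulae (4). Without a filter 32 were lower with the inhibitor and 31 higher in blastocysts without pyruvate. Without standard morula libraries 1 and 2, 7 were higher without lactate. Without pyruvate-free morula libraries 4 and 5, 41 were higher in pyruvate-free morulae and 13 lower with the inhibitor; the cause of these shifts was not tested.

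Leaving out 1 library at a time gave 109 to 116 members falling from 48 to 52 h and 125 to 132 from 52 to 62 h in standard medium. Without pyruvate it gave 87 to 98 rising from 42 to 48 h, then 39 to 59 and 53 to 71 falling. Between media it gave 57 to 69 at 48 h, 101 to 106 at 52 h and 37 to 57 for the difference of the step. It gave 65 to 100 for pyruvate-free morulae, 4 to 7 for morulae without lactate, 16 to 21 for blastocysts without pyruvate and 6 to 10 for those without lactate. For the inhibitor it gave 28 to 69, with 28 without pyruvate-free library 5 and 30 without inhibitor library 3 or 4. For morulae without lactate, leaving out standard library 1 gave 7.

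In no comparison did every pair of libraries with the same replicate number in the labels deviate together. In some groups that number differs from the one in the column name, so pairing by column name was not checked. The same limit holds for the replicate block. With a replicate block the counts, in the order of the comparisons above, were 120, 132, 95, 39, 66, 62, 103, 58, 86, 4, 17, 7 and, for the inhibitor, 39. Depth limits levels near 1 CPM, where counting alone gives 15.3% to 31.3%.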
